A study of Mus musculus with 2 samples.

Results

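The genes described here are the BH3-only death genes Pmaip1, Bik, Bad, Bcl2l11, Bid and Bbc3, chosen by name as 6 of the 17244 genes listed in at least 1 of the 2 count tables. All 6 were listed in both tables. Cells were mouse fetal male germ cells of the CD1 strain at embryonic days E13.5 and E12.5, isolated by fluorescence-activated sorting for GFP driven by Oct4, a pluripotency gene active in germ cells. No mutation or treatment is given for either group, and the labels do not say how many embryos were pooled. Each stage is 1 droplet library made with the 10x v2 kit, so stage and library cannot be told apart, no p-value was computed, and every interval below is a 95% interval that covers counting error only.

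BH3-only proteins start the mitochondrial pathway of cell death. They share a short helix, the BH3 domain, which binds a groove on the guardians of the BCL2 family (BCL2, BCL-XL, MCL1 and relatives) and frees or activates the effectors BAX and BAK, which open the outer mitochondrial membrane. Male germ cells of the mouse fetus turn from division to mitotic arrest around these stages, take up the RNA-binding protein NANOS2 as part of the male programme, and are partly lost by cell death. Pmaip1 (the protein NOXA, which binds chiefly MCL1) and Bbc3 (PUMA, which binds all the main guardians) are classical transcriptional targets of p53. Bcl2l11 (BIM) also binds all the main guardians and is a known target of FOXO factors, Bad is held inactive by phosphorylation downstream of growth factors, Bid is switched on when caspase-8 cuts it, and Bik sits largely at the endoplasmic reticulum.

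The stretch that gives these genes their name is shown for the 5 members in which a simple pattern found it, with the pattern in capitals. The pattern was a codon for leucine, any 3 codons, a codon for glycine, alanine or serine, a codon for aspartate, and a codon for aspartate or glutamate, read in the longest coding sequence of each gene in GENCODE M21 (GRCm38). Each line gives 48 coding bases, 5′ to 3′ on the strand of the gene.
Bik: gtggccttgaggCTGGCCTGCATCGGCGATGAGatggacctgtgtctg
Bad: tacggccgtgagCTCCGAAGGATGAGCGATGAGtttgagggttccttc
Bcl2l11: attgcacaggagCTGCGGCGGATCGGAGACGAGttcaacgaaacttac
Bid: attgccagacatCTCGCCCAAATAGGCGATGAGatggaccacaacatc
Bbc3: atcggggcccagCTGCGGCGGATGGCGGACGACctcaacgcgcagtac
Of the 21 capital bases, 8 were the same in all 5 genes. The closest pair was Bcl2l11 and Bbc3, with 17 of 21 capital bases and 31 of 48 bases the same, and the other pairs shared 10 to 16 capital bases. The same pattern occurred in 1233 of 21772 protein-coding genes searched (5.66%), so a match is a description and not a proof of a BH3 domain. The stretches lie in exon 3 of 5 of Bik (chr15:83543072-83543119, plus strand), exon 3 of 4 of Bad (chr19:6950780-6950827, plus), exon 3 of 4 of Bcl2l11 (chr2:128147138-128147185, plus), exon 4 of 6 of Bid (chr6:120897280-120897327, minus) and exon 3 of 4 of Bbc3 (chr7:16313761-16313808, plus). The longest coding sequence of Pmaip1 held no match. Bik, Bad and Bid each overlap annotated genes (Gm46495, Gpr137, and Bcl2l13, Gm44260 and Gm17812), and whether the counting used strand is not given, so reads in those overlaps are uncertain. On its own strand Bid has 1 overlapping gene, and Bik and Bad have 0.

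Clusters whose markers were those of germ cells held 2554 of 2670 kept barcodes at E13.5 (95.7%) and 2499 of 2621 at E12.5 (95.3%), and these are called germ-like cells. All 13 germ markers, Dazl and Ddx4 among them, were seen in both libraries, and they summed to 7888 CPM (UMIs of a gene per 1e+06 UMIs) at E13.5 and 7644 CPM at E12.5. Germ-like cells carried 58596390 unique molecular identifiers (UMIs, each standing for a captured transcript) at E13.5, with a median of 21837 per cell, and 59683019 at E12.5, with a median of 23481. The libraries shared 24 barcode sequences, 9 of them among germ-like cells of both. Markers of other cells were low, and some moved with stage. The 6 endothelial markers summed to 36.9 CPM at E13.5 (5 of 6 seen) and 97.1 CPM at E12.5 (6 of 6 seen), led in each library by Pecam1, which fetal germ cells also express. The 8 erythroid markers summed to 23.1 CPM at E13.5 (8 of 8 seen) and 0.285 CPM at E12.5 (3 of 8 seen). The 9 Sertoli markers summed to 13.7 and 11.6 CPM at E13.5 and E12.5. The other 6 somatic lists summed to 0.666 to 8.17 CPM at E13.5 and 0.335 to 6.32 CPM at E12.5. The median share of mitochondrial UMIs was 4.68% at E13.5 and 3.86% at E12.5. The part of these differences in the results below was not tested.

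Between the stages the 6 genes went in opposite directions, while their sum stayed close. Pmaip1 and Bik were higher at E13.5, and Bad, Bcl2l11, Bid and Bbc3 were lower. Summed over the 6 genes, germ-like cells held 93.5 CPM (91.0 to 96.0) at E13.5 and 99.5 CPM (97.0 to 102) at E12.5, a ratio of 0.940 (0.906 to 0.975). Pmaip1 supplied 46.7% of the summed UMIs at E13.5 and 8.05% at E12.5. Bad supplied 14.8% at E13.5 and 40.7% at E12.5, so the most abundant BH3-only transcript was Pmaip1 in the later library and Bad in the earlier. Because the assay counts transcript ends, CPM does not depend on transcript length, although capture can differ between genes.

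Pmaip1 gave 2557 UMIs or 43.6 CPM (42.0 to 45.4) at E13.5, against 478 UMIs or 8.01 CPM (7.31 to 8.76) at E12.5. The 2 intervals were far apart, and the level was 5.45-fold higher at E13.5 (4.94 to 6.02). Bik gave 668 UMIs or 11.4 CPM (10.6 to 12.3) at E13.5, against 213 UMIs or 3.57 CPM (3.11 to 4.08) at E12.5, 3.19-fold higher (2.73 to 3.74). These were the only members of the 6 that were higher in the later library.

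Bad gave 812 UMIs or 13.9 CPM (12.9 to 14.8) at E13.5, against 2416 UMIs or 40.5 CPM (38.9 to 42.1) at E12.5, 2.92-fold lower (2.70 to 3.17). Bbc3, the least abundant member at E13.5, gave 188 UMIs or 3.21 CPM (2.77 to 3.70) there and 453 UMIs or 7.59 CPM (6.91 to 8.32) at E12.5, 2.37-fold lower (1.99 to 2.82). Thus the 2 classical p53 targets among the 6 genes went opposite ways. Bcl2l11 gave 494 UMIs or 8.43 CPM (7.70 to 9.21) at E13.5, against 1074 UMIs or 17.995 CPM (16.9 to 19.1) at E12.5, 2.13-fold lower (1.92 to 2.38). Bid had the smallest difference of the 6, with 760 UMIs or 12.97 CPM (12.1 to 13.9) at E13.5 and 1305 UMIs or 21.9 CPM (20.7 to 23.1) at E12.5, 1.69-fold lower (1.54 to 1.85).

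**Figure D1:**
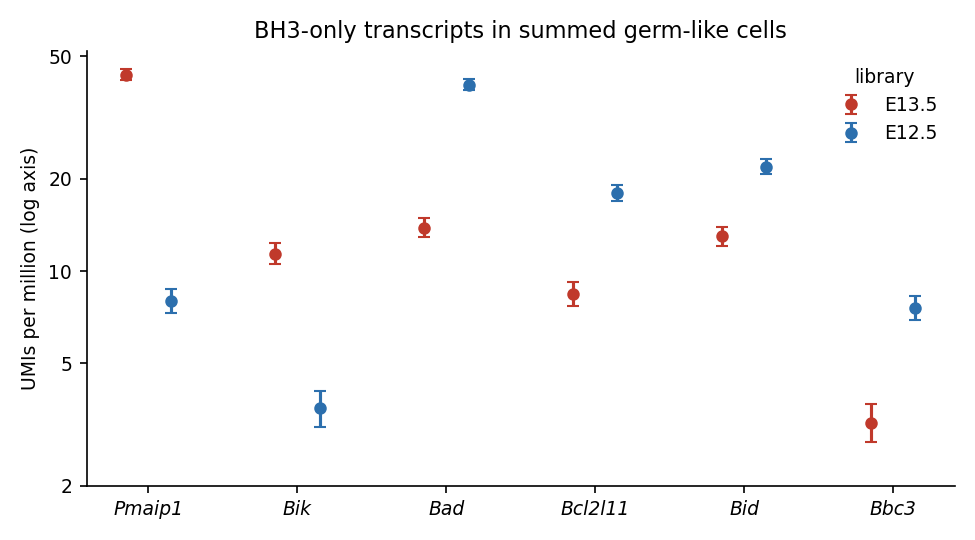
Summed level of each BH3-only gene in germ-like cells, in CPM on a log axis, with E13.5 in red and E12.5 in blue and bars for exact Poisson 95% intervals. Pmaip1 (43.6 against 8.01) and Bik lie higher at E13.5, and the other 4 genes lie lower, Bad by the widest margin (13.9 against 40.5).

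These differences were also set against those of all genes. Of the 7309 genes with 10 CPM or more in either library, 8.62% were at least 1.5-fold higher at E13.5 and 9.92% at least 1.5-fold lower, and the median log2 ratio was -0.022. Of the 5 members with 10 CPM or more, 2 were higher by that measure and 3 lower. Pmaip1 and Bik reached 10 CPM at E13.5 alone and Bcl2l11 at E12.5 alone, so these 3 entered the count only through the library where they were high, and nothing is read from the count. Bbc3 was under 10 CPM in both libraries. The ratio of Pmaip1 was above that of 99.4% of the 7309 genes, and that of Bik above 98.7%. Bad lay above 1.81% of them, Bcl2l11 above 3.74%, and Bid above 6.72%. The ranks of Pmaip1, Bik and Bcl2l11 rest on the same minimum as the count, so nothing is read from them either. Bad and Bid had 10 CPM or more in both libraries.

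The order of levels at E13.5 was Pmaip1, then Bad, Bid and Bik, then Bcl2l11, then Bbc3. The intervals of Bad and Bid overlapped there, as did those of Bid and Bik. At E12.5 the order was Bad, then Bid, then Bcl2l11, then Pmaip1 and Bbc3, whose intervals overlapped, then Bik.

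Among the other genes of the pathway, those with 10 CPM or more differed little between the libraries, and several below that level differed as much as the members. Of 8 guardian genes, 5 were listed, 2 reached 10 CPM in either library and neither was 1.5-fold apart. Mcl1, the main partner of NOXA, stood at 57.9 CPM at E13.5 and 65.6 CPM at E12.5, and Bcl2l1 (BCL-XL), named after its values were seen, at 20.8 and 14.3 CPM, 1.46-fold higher at E13.5 (1.34 to 1.60). Bcl2l2, under 10 CPM and also named afterwards, had 0.973 CPM at E13.5 and 1.49 CPM at E12.5, 1.53-fold lower (1.09 to 2.18). Of the 3 effectors only Bax reached 10 CPM, at 566 CPM at E13.5 and 505 CPM at E12.5. The other 2 effectors were lower at E13.5 and are named after their values were seen. Bok had 4.13 CPM at E13.5 and 9.50 CPM at E12.5, 2.30-fold lower (1.98 to 2.69), and Bak1 had 0.273 CPM at E13.5 and 1.63 CPM at E12.5, 5.95-fold lower (3.49 to 10.8). Of the other BH3-only genes, Bmf had 4.59 CPM at E13.5 and 4.88 CPM at E12.5, and Hrk had 0 UMIs at E13.5 and 4 at E12.5. Among 7 apoptosome genes, 4 reached 10 CPM and none was 1.5-fold apart (median log2 -0.18), with Cycs, cytochrome c, at 330 and 394 CPM at E13.5 and E12.5. Apaf1, the scaffold of the apoptosome and also named after its values were seen, was under that level, with 4.64 CPM at E13.5 and 8.78 CPM at E12.5, 1.89-fold lower (1.63 to 2.20).

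Of 10 known regulators of BH3-only transcription, 5 reached 10 CPM, none was 1.5-fold apart, and their median log2 ratio was -0.10. Trp53, the gene of p53, had 161 CPM at E13.5 and 201 CPM at E12.5. Below 10 CPM, 2 relatives of p53 named after their values were seen were apart, Trp73 with 0.836 CPM at E13.5 and 0.235 CPM at E12.5, 3.56-fold higher (1.94 to 6.99), and Trp63 with 1.37 CPM at E13.5 and 2.14 CPM at E12.5, 1.57-fold lower (1.18 to 2.10). Of 19 other p53 targets, 11 reached 10 CPM, 0 were at least 1.5-fold higher at E13.5 and 3 were lower, with a median log2 ratio of -0.34. The 3 were Phlda3, an inhibitor of AKT (5.80 CPM at E13.5 and 20.1 CPM at E12.5), Tigar, a regulator of glycolysis (48.7 and 102 CPM), and Ccng1, cyclin G1 (21.7 and 34.2 CPM). Over all 7309 genes at that level, 8.62% were higher and 9.92% lower by the same measure. Phlda3 reached 10 CPM at E12.5 alone, so it entered the count only through the library where it was high. Below 10 CPM, and named after their values were seen, Perp (0.512 and 3.05 CPM), Eda2r (0.836 and 1.86 CPM) and Gdf15 (0.512 and 1.21 CPM) were also at least 1.5-fold lower at E13.5. Some targets, also named afterwards, were higher at E13.5 by less than 1.5-fold. They were Cdkn1a (40.9 CPM at E13.5 and 34.4 CPM at E12.5), Xpc (38.2 and 28.6 CPM), Ei24 (46.9 and 38.3 CPM) and Sesn1 (6.79 and 5.31 CPM). The list thus went both ways, with its median on the lower side. Bbc3 had the direction of the lower targets, and Pmaip1 that of the higher ones. Mdm2, the ubiquitin ligase of p53, had 67.2 CPM at E13.5 and 66.5 CPM at E12.5.

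Shares of cells followed the levels. Each germ-like cell was thinned at random to 14500 UMIs, which removed the depth difference and left 2323 cells at E13.5 (231 shallower cells left out) and 2325 at E12.5 (174 left out). Pmaip1 was seen in 43.0% of cells (41.0 to 45.0) at E13.5 and 10.3% (9.11 to 11.6) at E12.5. Bad was close to the mirror image, with 16.5% (14.9998 to 18.1) at E13.5 and 42.9% (40.9 to 45.0) at E12.5. Bik was seen in 14.6% (13.1 to 16.1) at E13.5 and 4.90% (4.06 to 5.86) at E12.5. Bid was seen in 17.0% (15.5 to 18.6) at E13.5 and 26.1% (24.3 to 27.9) at E12.5, and Bcl2l11 in 11.1% (9.86 to 12.46) and 23.6% (21.9 to 25.4). Bbc3 was seen in 4.52% (3.71 to 5.45) at E13.5 and 11.1% (9.85 to 12.4) at E12.5. For each gene the intervals of the libraries did not overlap. Without thinning, the shares at E13.5 and E12.5 were 55.9% and 16.3% for Pmaip1, 20.2% and 7.32% for Bik, 25.2% and 58.8% for Bad, 17.0% and 33.7% for Bcl2l11, 25.8% and 39.5% for Bid, and 6.4996% and 14.8% for Bbc3.

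Free RNA can give a UMI to a cell that does not make the transcript, and its level could not be bounded closely. The only somatic class was 29 Sertoli-like cells with a median of 11418 UMIs, 25 from E13.5 and 4 from E12.5, which were compared at 2000 UMIs per cell. At that depth none of them showed a UMI of Pmaip1, Bik or Bbc3, and 0 of 29 allows a share of up to 11.9%. At 2000 UMIs, Pmaip1 was seen in 7.41% of germ-like cells at E13.5 and 1.80% at E12.5, both under that limit, so these shares could not be set apart from background by this check. Summed over those 29 cells without thinning, Pmaip1 had 1 UMI or 2.73 CPM (0.0691 to 15.2). That interval lies under its level in germ-like cells at E13.5 but holds its level at E12.5 (8.01 CPM). Bik had 2 UMIs or 5.46 CPM (0.661 to 19.7) and Bbc3 1 UMI or 2.73 CPM (0.0691 to 15.2). Both intervals hold the levels in germ-like cells of either library, so these 2 genes could not be set apart from background. Bad had 62.8 CPM (39.8 to 94.2) and Bcl2l11 35.5 CPM (18.9 to 60.7) in the Sertoli-like cells, as much as or more than in germ-like cells, so these transcripts are not particular to germ cells here.

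**Figure D2:**
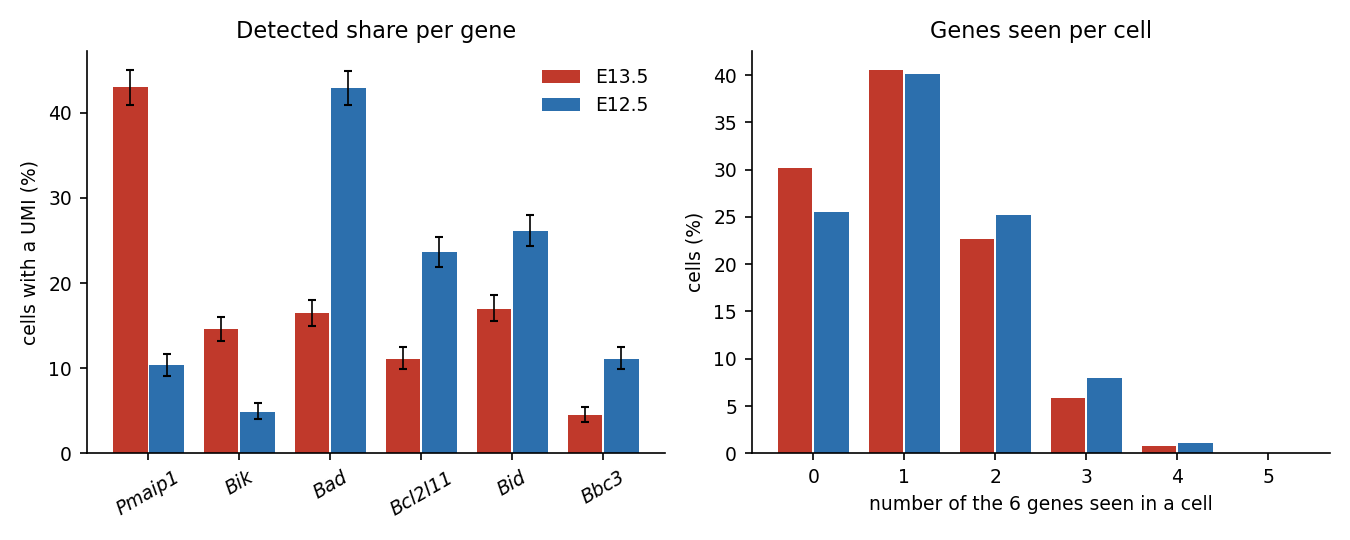
Left, percent of germ-like cells with at least 1 UMI of each gene after thinning to 14500 UMIs, with exact binomial 95% intervals; right, percent of those cells with a given number of the 6 genes seen. E13.5 is red and E12.5 blue, and Pmaip1 (43.0% against 10.3%) and Bad (16.5% against 42.9%) trade places between the libraries.

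Within a library, Bik, Bad and Pmaip1 were spread less evenly over cells at E13.5 than most genes of like level in the thinned counts. The variance of thinned UMIs over their mean (the Fano factor, 1 for pure counting) was 1.27 for Bik at E13.5, above 99.1% of genes with a mean within 1.5-fold, and 1.11 at E12.5, above 95.3%. Pmaip1 had 1.21 at E13.5, above 96.1% of its like, and 1.04 at E12.5, above 73.0%. A thinned cell held at most 6 Pmaip1 UMIs at E13.5 and 3 at E12.5, and 86 cells at E13.5 but 2 at E12.5 held 3 or more. Bbc3 had 1.08 at E13.5, above 88.6%, and 1.22 at E12.5, above 99.4%, but a second draw turned this order round, with 1.21 at E13.5 and 1.15 at E12.5. In the first draw only 1 cell at E13.5 and 5 cells at E12.5 held 3 or more Bbc3 UMIs, so no order of the stages is read from it. For Bik the second draw gave 1.19 at E13.5 and 1.16 at E12.5, and for Pmaip1 1.25 and 1.12. Bad had 1.15 at E13.5 (above 96.9%) and 1.08 at E12.5 (above 80.8%), and the second draw gave 1.10 and 1.09. Bcl2l11 had 1.04 in both libraries, and Bid had 1.02 at E13.5 and 1.07 at E12.5, which for these 2 genes was above 39.9% to 82.7% of like genes.

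Most cells showed none or 1 of the 6 genes. At 14500 UMIs, 30.1% of cells at E13.5 and 25.5% at E12.5 had none, and 40.6% and 40.2% had exactly 1. Cells with 2 or more made up 29.3% (27.5 to 31.2) at E13.5 and 34.3% (32.3 to 36.2) at E12.5. The product of the single-gene shares gives 28.4% for E13.5 and 33.9% for E12.5, inside those intervals. A single cell, at E13.5, showed 5 of the genes, and no cell showed 6.

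For 30 ordered pairs per library, the share of cells with gene B was compared between cells with and without gene A. The intervals were apart in 2 of 30 at E13.5, which are the same pair in both orders, and in 0 of 30 at E12.5. That pair was Bbc3 and Bid, and it rested on the random draw of the thinning. At E13.5, Bid was seen in 29.5% (21.02 to 39.2) of the 105 cells with Bbc3 and in 16.4% (14.9 to 18.02) of those without. A second draw gave 16.2% (9.90 to 24.4) with Bbc3 and 17.1% (15.6 to 18.8) without at E13.5, and without thinning the intervals overlapped (26.0 to 40.8 with and 23.5 to 27.0 without). At E12.5 the shares were 29.1% (23.6 to 35.0) with Bbc3 and 25.7% (23.9 to 27.7) without, and their intervals overlapped. The 2 genes that were higher at E13.5 did not mark the same cells, as Bik was seen in 13.9% (11.8 to 16.2) of cells with Pmaip1 and 15.03% (13.1 to 17.1) of cells without it at E13.5.

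Clusters were made from the same counts, so levels by cluster are a description. Clusters 2, 3, 4 and 5 were almost wholly E13.5 cells and clusters 0 and 1 almost wholly E12.5 cells. Pmaip1 lay at 49.3, 37.7, 36.6 and 50.2 CPM in E13.5 clusters 2, 3, 4 and 5, and at 7.87 and 8.13 CPM in E12.5 clusters 0 and 1, so every E13.5 cluster was above both E12.5 clusters. Bik varied most among the E13.5 clusters, with 15.5 CPM in cluster 2, which Nanos2 led, 11.999 in cluster 3, 10.6 in cluster 4 and 6.24 in cluster 5, against 2.81 and 4.63 CPM in E12.5 clusters 0 and 1. Bcl2l11 ran the other way, with 6.38, 7.76, 9.89 and 10.3 CPM in clusters 2, 3, 4 and 5 and 16.0 and 20.5 CPM in clusters 0 and 1. Bad lay between 10.8 and 16.3 CPM in the E13.5 clusters and at 41.5 and 38.5 CPM in the E12.5 clusters. Bid lay between 11.6 and 14.8 CPM at E13.5 and at 22.0 and 21.6 CPM at E12.5. Bbc3 lay between 2.46 and 4.04 CPM at E13.5 and at 6.73 and 7.51 CPM at E12.5. No germ-like cluster of 1 stage crossed into the range of the other for any of the 6 genes among these clusters, although the counting intervals of Bik in clusters 5 (4.97 to 7.73) and 1 (3.84 to 5.54) overlapped.

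**Figure D3:**
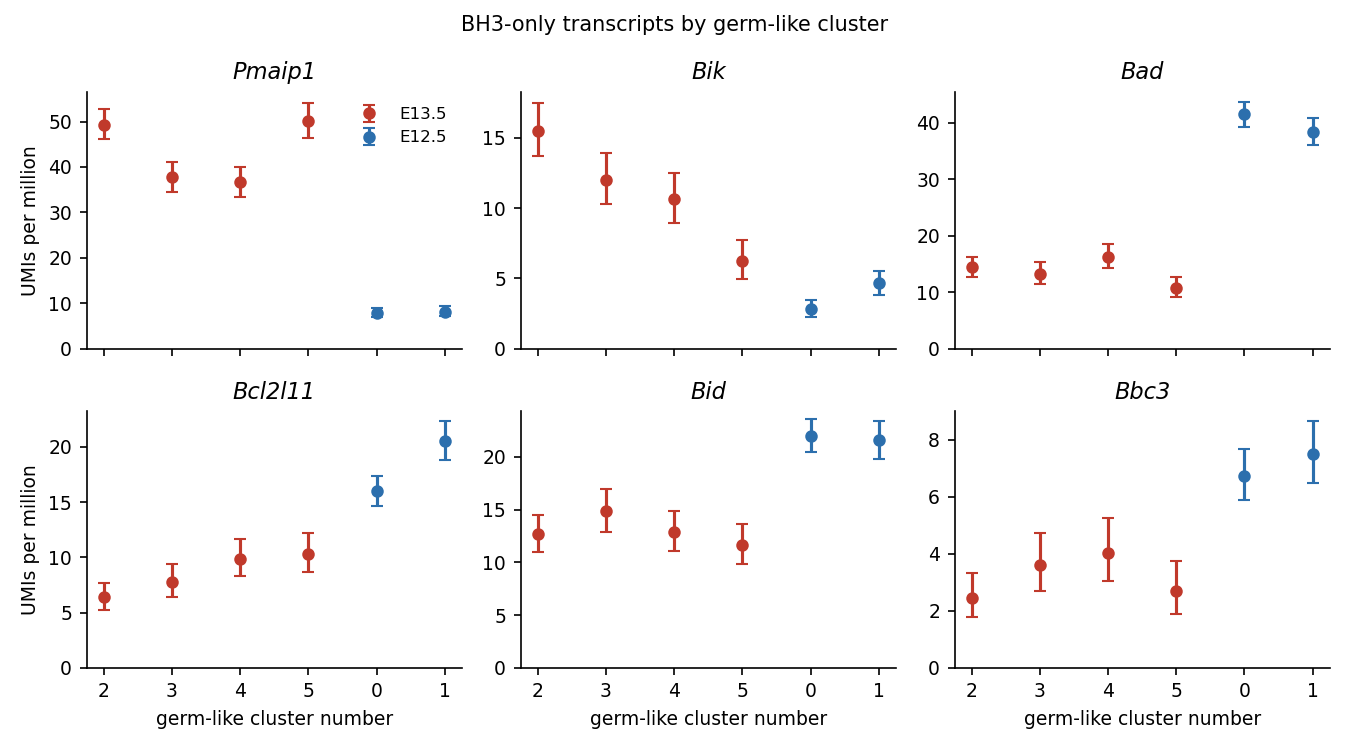
Level of each gene, in CPM with exact Poisson 95% intervals, in the germ-like clusters of E13.5 (red, clusters 2 to 5) and E12.5 (blue, clusters 0 and 1). For each gene the E13.5 clusters lie on one side of the E12.5 clusters, and Bik spans 6.24 (cluster 5) to 15.5 (cluster 2) within E13.5.

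A small germ-like cluster of 28 cells, 3 at E13.5 and 25 at E12.5, was led by the p53 targets Plk2, Phlda3, Btg2 and Cdkn1a and had Bbc3 among its 10 leading genes. In its 25 cells at E12.5, Bbc3 stood at 65.1 CPM (45.4 to 90.6), against 7.59 CPM in all germ-like cells of that library. After thinning, Bbc3 was seen in 13 of its 22 cells at E12.5, against 245 of 2303 other cells. Pmaip1 was seen in 3 of the 22, and Bik in 0 of 22. Because the cluster was made with these counts, this is no separate evidence about Bbc3. Without that cluster the stage ratio of Bbc3 was -1.16 on the log2 scale, against -1.24 with it.

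The relation to Nanos2 was asked within E13.5, since Nanos2 had 1515 UMIs in 881 cells there and 20 UMIs in 19 cells at E12.5. After thinning, 630 cells at E13.5 had a Nanos2 UMI (median depth before thinning 21508.5 UMIs) and 1693 had none (median 23008). Pmaip1 had 49.3 CPM in cells with Nanos2 and 41.4 CPM in cells without, a ratio of 1.19 (1.06 to 1.33). Bik had 14.6 CPM in cells with Nanos2 and 11.5 CPM in cells without, a ratio of 1.27 (1.02 to 1.56), which was 1.01 without thinning. The other ratios had intervals that held 1, namely 0.877 (0.702 to 1.09) for Bad, 0.768 (0.569 to 1.02) for Bcl2l11, 1.05 (0.848 to 1.30) for Bid and 0.741 (0.451 to 1.18) for Bbc3. Without thinning the ratio of Bad was 0.746 (0.638 to 0.869). A member was counted as apart in such splits when it differed at least 1.5-fold and its interval left out 1. By that count 0 of 6 members were apart, where 4.88% of 10436 genes with 2 CPM or more were higher and 4.80% lower in cells with Nanos2. Of the 6826 genes with 10 CPM or more in cells without Nanos2, 1.16% were at least 1.5-fold higher and 3.33% lower, whatever their interval. Later splits use the 2 CPM minimum. The ratios of Pmaip1 and Bik between these cells were far smaller than their ratios between the libraries (5.45 and 3.19). The 2 kinds of ratio are not on a like footing. Of the 630 cells with Nanos2, 416 held only 1 UMI of it, so the cells without a UMI can include cells that make the transcript. The effect of such missed cells on the ratios was not tested.

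The relation to the cell cycle was asked by ranking the thinned cells of each library by their summed UMIs of 42 S phase genes and, apart from that, of 51 G2/M genes, and comparing the upper with the lower tertile. These tertiles are ranges of a score and not cell types. For the S phase list, 766 cells with more than 61 UMIs were set against 825 with 42 or fewer at E13.5, with 214 cells within 1 UMI of a limit. At E12.5, 757 cells with more than 88 were set against 806 with 69 or fewer, with 240 that near. Median depths before thinning were 23782.5 UMIs in the upper and 20622 in the lower tertile at E13.5, and 22935 and 25514 at E12.5.

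Among the 6 members, Bik had the lowest G2/M ratio in both libraries, while its S phase ratio was above 1 at E12.5 alone. At E12.5 Bik had 5.56 CPM in the upper S phase tertile and 2.05 CPM in the lower, 2.71-fold higher (1.66 to 4.54). It was the 1 member of 6 counted as apart there, with a background of 2.86% of 10385 genes higher and 4.24% lower. At E13.5 Bik had 11.9 CPM in the upper and 14.5 CPM in the lower tertile, a ratio of 0.817 (0.647 to 1.03). In the G2/M split Bik was lower in the upper tertile in both libraries. At E13.5 it had 6.61 CPM in the upper tertile and 16.6 CPM in the lower, a ratio of 0.399 (0.301 to 0.525). At E12.5 it had 1.52 CPM in the upper tertile and 5.80 CPM in the lower, a ratio of 0.262 (0.144 to 0.451).

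The G2/M tertiles held 772 and 787 cells at E13.5 (more than 138 and at most 87 UMIs of the list, 88 cells near a limit) and 773 and 797 cells at E12.5 (more than 147 and at most 114, 137 cells near a limit). Median depths before thinning were 26089.5 UMIs in the upper and 20525 in the lower tertile at E13.5, and 25389 and 23052 at E12.5. Bik was the 1 member counted as apart at E13.5, where 10.0% of 10523 genes were lower in the upper tertile. At E12.5 the count was 2 members, Bik and Bbc3, with a background of 2.64% of 10356 genes lower. Bik reached the 2 CPM minimum there only in the lower tertile, where it was high, so its place in that count is not read as support. Bbc3 had 7.67 CPM in the upper and 11.8 CPM in the lower G2/M tertile at E12.5, a ratio of 0.652 (0.492 to 0.860). With cells split by a Mki67 UMI in place of the G2/M list, the log2 ratio of Bik was -0.75 at E13.5 and -0.57 at E12.5, and at E12.5 0 members were counted as apart.

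For Pmaip1 the cell cycle differences were small beside the stage difference. At E13.5 it had 35.4 CPM in the upper and 49.6 CPM in the lower S phase tertile, a ratio of 0.714 (0.627 to 0.812), and 44.7 and 47.3 CPM in the upper and lower G2/M tertiles, a ratio of 0.944 (0.834 to 1.07). At E12.5 both of its intervals held 1. None of the 6 members was counted as apart in the S phase split at E13.5, where 9.78% of 10516 genes were higher and 10.8% lower. Bcl2l11 came near, with 10.5 CPM in the upper and 7.19 CPM in the lower tertile, a ratio of 1.47 (1.10 to 1.96), and at E12.5 its ratio was 1.23 (1.01 to 1.49). Bbc3 had S phase ratios of 1.53 (0.962 to 2.47) at E13.5 and 1.14 (0.857 to 1.52) at E12.5. Bad had 17.3 CPM in the upper and 12.54 CPM in the lower S phase tertile at E13.5, a ratio of 1.38 (1.11 to 1.72), and 43.9 and 36.7 CPM at E12.5, a ratio of 1.20 (1.05 to 1.37). In the G2/M split Bad was lower in the upper tertile, with a ratio of 0.678 (0.527 to 0.869) at E13.5 and 0.764 (0.670 to 0.872) at E12.5. Bcl2l11 had G2/M ratios of 1.33 (0.982 to 1.81) at E13.5 and 0.733 (0.605 to 0.886) at E12.5. The intervals of Bid held 1 in all 4 cell cycle splits.

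The relation to p53 was asked with the 19 other p53 targets, a list that holds none of the 6 members. The list yields few UMIs per cell, with a median of 5 at E13.5 and 6 at E12.5, so the tertiles are coarse. At E13.5, 551 cells with more than 7 UMIs were set against 827 with 4 or fewer, with 1775 cells within 1 UMI of a limit, and at E12.5, 613 cells with more than 8 against 912 with 5 or fewer, with 1508 that near. Bbc3 was the 1 member counted as apart in each library. At E13.5 it had 5.88 CPM in the upper and 2.50 CPM in the lower tertile, 2.35-fold higher (1.46 to 3.85), where 1.30% of 10424 genes were higher and 0.604% lower. At E12.5 it had 15.6 CPM in the upper and 5.37 CPM in the lower tertile, 2.91-fold higher (2.17 to 3.93), where 1.80% of 10364 genes were higher and 0.627% lower. Without the cluster led by p53 targets, its log2 ratio was 1.18 at E13.5 and 1.35 at E12.5.

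Pmaip1, the other classical p53 target among the 6 genes, had 49.1 CPM in the upper and 43.0 CPM in the lower p53 target tertile at E13.5, a ratio of 1.14 (0.997 to 1.30). At E12.5 it had 7.88 CPM in the upper and 7.86 CPM in the lower tertile, a ratio of 1.001 (0.729 to 1.37). Bik had ratios of 0.733 (0.556 to 0.960) at E13.5 and 0.771 (0.471 to 1.24) at E12.5. Bad had 1.39 (1.09 to 1.77) at E13.5 and 1.06 (0.929 to 1.22) at E12.5, Bid 1.25 (0.971 to 1.60) and 1.23 (1.02 to 1.47), and Bcl2l11 0.976 (0.703 to 1.35) and 0.926 (0.756 to 1.13).

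**Figure D4:**
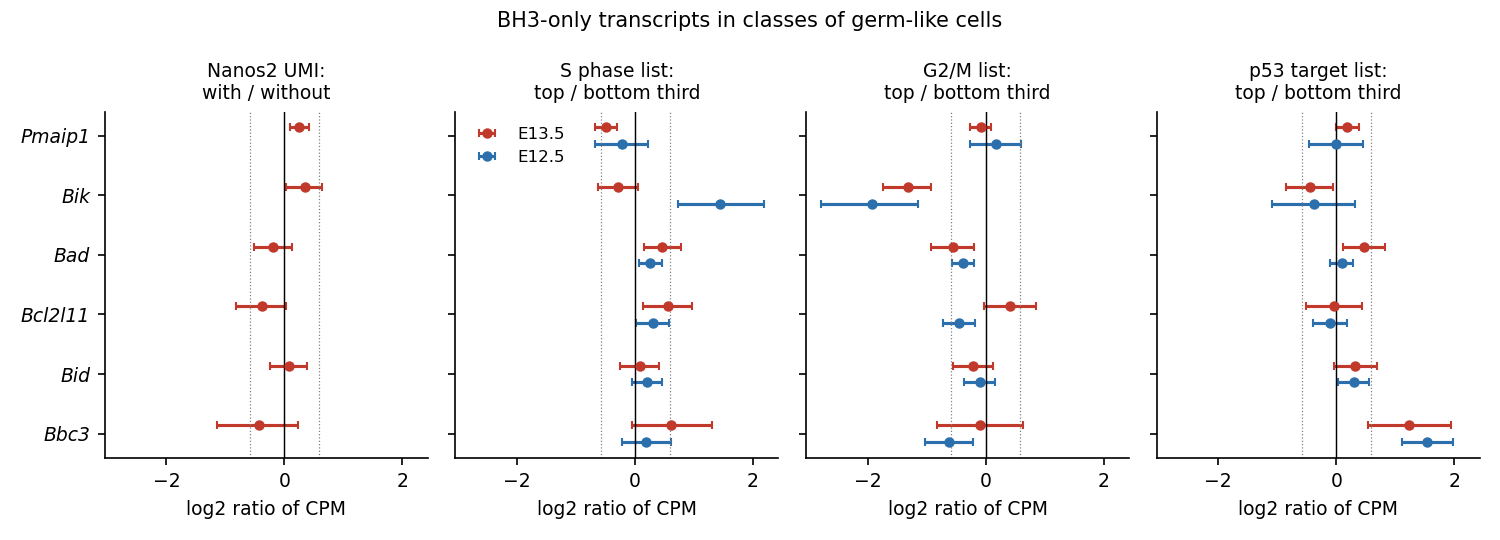
Log2 ratio of the level of each gene between classes of germ-like cells within a library, with E13.5 in red, E12.5 in blue and exact 95% counting intervals. Panels compare cells with over without a Nanos2 UMI (E13.5 alone) and the upper over the lower tertile of the S phase, G2/M and p53 target lists, and dotted lines mark 1.5-fold. Bik lies below 0 in the G2/M panel (-1.33 at E13.5 and -1.93 at E12.5) and Bbc3 above 0 in the p53 panel (1.23 and 1.54) in both libraries.

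The stage difference was also present when like tertiles of the libraries were compared. The limits of the tertiles were set within each library, and for each list they were higher in the earlier library. A tertile thus does not hold the same range of scores at both stages, and the stage difference at equal score was not tested. Over the upper and lower tertiles of the 3 lists, 6 classes in all, Pmaip1 was 5.04 to 6.23-fold higher at E13.5 and Bik 2.14 to 7.08-fold higher. Bad was 2.54 to 3.65-fold lower at E13.5, Bcl2l11 1.83 to 3.32-fold lower, Bid 1.60 to 1.75-fold lower and Bbc3 2.15 to 3.73-fold lower. Bik had the widest range, from the upper S phase tertile (2.14, 1.57 to 2.95) to the lower (7.08, 4.61 to 11.4).

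Barcodes removed for 10% or more mitochondrial UMIs, 91 at E13.5 and 45 at E12.5, were shallow, with medians of 3221 and 3523 UMIs. With mitochondrially encoded genes left out of the total, Pmaip1 had 26 UMIs or 82.7 CPM in them at E13.5, against 45.8 CPM in germ-like cells, a ratio of 1.81 (1.18 to 2.65). Bcl2l11 had 7 UMIs or 22.3 CPM, against 8.85 CPM, a ratio of 2.52 (1.01 to 5.22). These 2 members were counted as apart at E13.5, where 22.2% of 8396 genes were higher and 2.10% lower. Bbc3 had too few UMIs for a ratio there, and nothing is read from a count over so few members. At E12.5, 0 members were counted as apart, with 23.5% of 6488 genes higher and 3.79% lower. No member had more than 5 UMIs there and only Bcl2l11 and Bid had enough for a ratio, so nothing is read from that count either.

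The genes most like each member across cells were sought among 6841 genes seen in 10% or more of the thinned cells of both libraries, by the lower of the 2 Spearman coefficients. Only 4 members could be used, as Bik and Bbc3 were seen in under 10% of cells in a library. Bad had the highest values, with Rhox9 (0.14 at E13.5 and 0.18 at E12.5), Rhox5 (0.12 in both) and Dppa5a (0.14 and 0.12), which are X-linked homeobox genes and a gene of pluripotent cells. For Pmaip1 the nearest were Tgif1, Sdc4 and Park7, with coefficients of 0.059 to 0.095. For Bcl2l11 they were Slbp, which binds histone mRNA, and the linker histone genes Hist1h1a and Hist1h1b, with 0.053 to 0.065, and for Bid they were Socs2, Uqcc1 and Sash1, with 0.052 to 0.062. Coefficients this low in sparse counts are a description of 2323 and 2325 cells that share a library and a depth.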

How the data were processed

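Single-cell RNA-seq libraries of male germ cells, 1 at E13.5 and 1 at E12.5, were used as deposited by the authors, as raw UMI counts per gene and barcode. The submitters' processing notes list Cell Ranger and mm10 (GRCm38); the software version, the gene annotation and the use of strand are not given in the sources used here. Tables held 2992 barcodes and 59842242 UMIs at E13.5 and 2847 barcodes and 60383440 UMIs at E12.5.

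Only barcodes with at least 500 genes and less than 10% mitochondrial UMIs entered clustering (scanpy 1.11.5, leidenalg 0.10.2, on 2000 variable genes, 30 components, 15 neighbours, resolution 0.5). Clusters were named from marker lists. A haemoglobin-led cluster of low depth stayed unnamed (90 barcodes at E13.5, 115 at E12.5). In germ-like clusters, 1 barcode at E13.5 and 3 at E12.5 with macrophage or erythroid markers at 0.5% or more of UMIs were left out. The other somatic lists were not used for this step. Scrublet called 27 and 65 germ-like doublets at E13.5 and E12.5, which were kept in the main values. UMIs were summed per library as CPM, with exact Poisson intervals for levels, exact conditional binomial intervals for ratios and exact (Clopper-Pearson) intervals for shares. No ratio was given under 3 UMIs. Thinning drew 14500 UMIs per cell without replacement. The interval calculation was tested on simulated data.

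The 6 genes, the pathway lists and the tests were chosen with earlier results of these data known. Of each pathway list, the most abundant gene and any gene with 10 CPM or more and at least 1.5-fold apart are named; likeness names the 3 highest genes per member. Alternatives covered scaling (TMM, edgeR 4.0.16), cell filters, doublets, thinning and class limits.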

Additional observations from a re-analysis of the deposited data

Results flagged for a closer look

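The point ratios of Bik stood on opposite sides in the S phase split of the libraries, although its interval at E13.5 also held equal levels. The log2 ratio of the upper over the lower tertile was -0.29 at E13.5 (132 and 174 UMIs in the upper and lower tertile) and 1.44 at E12.5 (61 and 24 UMIs), and the counting intervals did not overlap. The difference between the stages was not tested, as each stage is 1 library.

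The point ratios of Bcl2l11 did so in the G2/M split. Its log2 ratio was 0.41 at E13.5 (103 and 79 UMIs in the upper and lower tertile) and -0.45 at E12.5 (189 and 266 UMIs). The intervals again did not overlap, although the interval at E13.5 also held equal levels. With cells split by a Mki67 UMI in place of the list, the log2 ratio of Bcl2l11 was 0.59 at E13.5 and -0.057 at E12.5. The difference between the stages was not tested.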

How the results depend on the processing

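No paired analysis was possible because each stage has 1 library. Stage log2 ratios kept their direction and stayed within their intervals under every alternative run (TMM, a total without abundant genes, stricter or no cell filter, doublets left out, equal weight per cell, no p53-led cluster), at 2.42 to 2.49 for Pmaip1, 1.57 to 1.72 for Bik, -1.57 to -1.51 for Bad, -1.16 to -1.05 for Bcl2l11, -0.77 to -0.71 for Bid and -1.31 to -1.11 for Bbc3; the last alternative was chosen after seeing the data. Shares of cells follow the depth by construction. Thinned to 5000 UMIs, they were, at E13.5 and E12.5, 18.5% and 3.83% for Pmaip1, 5.60% and 1.73% for Bik, 6.59% and 18.01% for Bad, 4.50% and 8.70% for Bcl2l11, 6.04% and 11.4% for Bid, and 1.58% and 4.07% for Bbc3. Without thinning they were 55.9% and 16.3%, 20.2% and 7.32%, 25.2% and 58.8%, 17.0% and 33.7%, 25.8% and 39.5%, and 6.4996% and 14.8%, in that order of genes. A second random thinning gave 9.63% for Bbc3 at E12.5 (9.86% expected over all thinnings, added after seeing the data). Cells with 2 or more members made up 5.84% at E13.5 and 7.25% at E12.5 at 5000 UMIs, and 47.2% and 55.1% without thinning. In the S phase split at E13.5, the count of members apart was 1 (Bcl2l11) without thinning and 1 with doublets left out. In the G2/M split by Mki67 it was 2 at E13.5 and 0 at E12.5. In the mitochondrial split at E13.5 it was 0 with all UMIs as the total. With a limit of 20% it was also 0, but only Pmaip1 had enough UMIs for a ratio there. The log2 ratio of Pmaip1 was 0.92 at that limit and 0.85 in the main setting, so no change is read from that count. The cause of these changes was not tested. Bbc3 was counted as apart in the p53 target split of each library under all 6 settings, with ratios of 1.67 to 2.52 at E13.5 and 1.87 to 3.19 at E12.5. The ratios of Bad and Bik in the Nanos2 split moved with the setting. Bad had 0.746 (0.638 to 0.869) without thinning, 0.796 (0.633 to 0.995) in the second draw and 1.36 (0.859 to 2.07) at 5000 UMIs. Bik had 1.01 (0.855 to 1.18) without thinning. Depth limits the splits of Bbc3 and Bik, with under 100 UMIs in several classes, and the 29 Sertoli-like cells hardly bound background.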

Other observations

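The low-depth cluster led by haemoglobin genes carried few UMIs of the 6 genes. Pmaip1 had 6 UMIs or 18.8 CPM (6.90 to 40.9) in its 90 barcodes at E13.5 and 3 UMIs or 8.83 CPM (1.82 to 25.8) in its 115 barcodes at E12.5. Bbc3 had 1 UMI at E13.5 and 8 UMIs from 5 barcodes, or 23.5 CPM (10.2 to 46.4), at E12.5, an interval above its level of 7.59 CPM in germ-like cells there. Bcl2l11 had 9 UMIs from 5 barcodes, or 28.2 CPM (12.9 to 53.5), at E13.5, an interval above its level of 8.43 CPM in germ-like cells there, and 10 UMIs from 6 barcodes, or 29.4 CPM (14.1 to 54.1), at E12.5. In the barcodes with under 500 genes, Pmaip1 had 9 UMIs in 231 barcodes at E13.5, or 58.1 CPM (26.6 to 110), and 0 UMIs in 181 barcodes at E12.5, which allows up to 47.8 CPM.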
